A study of Bos taurus with 9 samples.

Results

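The transcript of DPPA3, which was transfected as mRNA, and the transcripts of 9 genes of the machinery that copies, writes, oxidises and removes DNA methylation were followed across bovine endometrial epithelial cell cultures. The genes were chosen by name as DPPA3, UHRF1, UHRF2, DNMT1, DNMT3A, DNMT3B, TET1, TET2, TET3 and TDG. All 10 were found among the 30641 genes of the count table, and all 10 were among the 14874 genes with enough counts to be tested, DPPA3 only through the libraries that received it. In the DPPA3 mRNA group, 500 ng of in vitro transcribed DPPA3 mRNA was delivered with the transfection reagent jetMESSENGER at 24 hours from seeding. The reagent alone group had jetMESSENGER without RNA at that time, and untreated control cells had neither. Each group had 3 libraries of total RNA, 9 in all. No group received another mRNA, so an effect of the DPPA3 sequence cannot be told apart from one of any transfected mRNA. The time from transfection to harvest, and the species whose DPPA3 sequence was used, are not stated in the sources at hand.

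In dividing cells, DNA methylation at CG sites is copied onto the new strand after replication by DNMT1, which UHRF1 brings to sites where only the parental strand is methylated. DPPA3, also called STELLA or PGC7, is a maternal protein of oocytes and early embryos, and in mouse cells it binds UHRF1, releases it from chromatin and draws it out of the nucleus, so that methylation is lost over cell divisions. DNMT3A and DNMT3B place new methylation, the TET enzymes oxidise it, and TDG cuts out the oxidised bases so that repair can restore an unmethylated cytosine. The counts measure transcripts, and the proteins, their place in the cell and DNA methylation were not analysed here.

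Total counts were 11070923 to 13258036 in the DPPA3 mRNA libraries, 3890134 to 12092771 in the reagent alone libraries and 7258348 to 10130619 in the untreated control libraries. The keratins KRT8, at 3802 to 4995 CPM (the normalised read count, on library sizes scaled with TMM factors), KRT18, at 1565 to 2601 CPM, and KRT19, at 2196 to 2872 CPM, and the adhesion gene CDH1, at 37.6 to 58.7 CPM, were read in every library. The epithelial genes EPCAM, CLDN4, ESRP1 and MUC1 reached at most 0.78, 1.93, 0.16 and 3.87 CPM. Of the stromal genes, COL1A1 lay at 8085 to 18918 CPM, COL1A2 at 11063 to 16021 CPM and COL3A1 at 6031 to 10226 CPM. VIM lay at 1321 to 1725 CPM, DCN at 89.3 to 259.7 CPM and LUM at 21.1 to 59.8 CPM. PDGFRA lay at 26.9 to 44.6 CPM and PDGFRB at 6.41 to 17.2 CPM, and THY1 reached at most 1.29 CPM. Markers of both epithelial and stromal cells were therefore read. Near 0 were EPCAM, CLDN4 and ESRP1 of the 8 epithelial genes listed and THY1 of the 9 stromal genes. The label is kept as given. Of the endothelial genes, CDH5, KDR and PECAM1 reached at most 0.11, 0.23 and 2.17 CPM, and VWF lay at 3.36 to 7.99 CPM in the 9 libraries. Of the immune genes, PTPRC had 0 counts in every library, CD3E reached at most 0.45 CPM, and CD14, CD68 and CD79A, each counted in all 9 libraries, reached at most 5.74, 2.98 and 1.74 CPM. Summed over the stromal list, the level was 29464 to 34659 CPM in DPPA3 mRNA libraries, 27910 to 35994 CPM in reagent alone libraries and 30397 to 46375 CPM in untreated control libraries. The sum of the epithelial list was 8333 to 9295 CPM, 8158 to 8456 CPM and 8466 to 10478 CPM in the same groups. Untreated control replicate 1 stood apart from the other libraries: its most abundant gene took 10.98% of its counts, against 3.05% to 4.36% elsewhere, and it held the highest value of 28.8% and the lowest value of 31.8% of the 14873 tested genes other than DPPA3. The labels do not say whether the replicates of a group came from different cultures or animals, and the p-values reflect the spread among these 9 libraries, which may be technical. In bulk RNA, fewer cells of a type and less RNA per cell cannot be told apart.

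DPPA3 was read in very large amounts after transfection and at or below 2 counts per library elsewhere. The DPPA3 mRNA libraries held 126334, 213790 and 213192 DPPA3 counts in replicates 1, 2 and 3, the reagent alone libraries held 0 in each, and the untreated control libraries held 0, 2 and 1. The groups with and without the mRNA did not overlap, and DPPA3 mRNA replicate 1 was the lowest of the transfected libraries. DPPA3 made up 0.953%, 1.93% and 1.84% of all counts in those 3 libraries, with exact (Clopper-Pearson) 95% intervals of 0.948% to 0.958%, 1.92% to 1.94% and 1.84% to 1.85%, which cover counting error only.

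On the CPM scale DPPA3 averaged 15645 ± 5334 in the DPPA3 mRNA group (SD, n = 3), and replicates 2 and 3 stood 2.03 and 1.90 times above replicate 1. Taking 3 counts per library as the floor for reagent alone, its level was at least 37462-fold higher. Relative to the pooled untreated control libraries, which held 3 counts, the ratio per scaled library size was 131094 (95% counting interval 44858 to 635692). As DPPA3 was the RNA added, its test serves as a check of the labels and its outcome was set by the design. In edgeR's quasi-likelihood test (Benjamini-Hochberg adjustment over all genes tested) it had an adjusted p of 1.42e-08 against reagent alone and 1.56e-08 against untreated control. Both groups of the comparison between reagent alone and untreated control were at or under the floor, so no fold is given there. The counts do not separate transfected RNA from RNA made by the cells. On plain shares of total counts, before TMM scaling, DPPA3 shifts every other gene of the same library by -0.014 to -0.028 on the log2 scale. This is small beside the errors given below.

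Beside DPPA3, no gene of the methylation machinery passed the threshold (adjusted p under 0.05) in any of the 3 comparisons. Against reagent alone, 1 of the 10 genes was called, DPPA3 itself, beside 0.00672% of all genes tested. At an unadjusted p under 0.05 the count was again 1 of the 10, beside 1.67% of all genes, and groups did not overlap for 1 of the 10, beside 8.9% of all genes. Against untreated control, 1 of the 10 genes was called, beside 0.0134% of all genes; at an unadjusted p under 0.05 it was 1, beside 3.91%, and groups did not overlap for 2 genes, DPPA3 and TET2, beside 8.1%.

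Between reagent alone and untreated control, 0 of the 10 genes were called, beside 0% of all genes; 0 had an unadjusted p under 0.05, beside 10.2%; and the groups of 1, TET2, did not overlap, beside 14.1%. The DESeq2 Wald test also called DPPA3 alone among the 10 genes in both comparisons of transfected cells and 0 of them between reagent alone and untreated control. Over all genes edgeR called 1, 2 and 0 in the comparisons in the order above and DESeq2 9, 10 and 2. The second gene edgeR called against untreated control was IFITM1, an interferon-induced gene named here after its values were seen. It had 231, 468 and 318 counts in DPPA3 mRNA libraries and 21, 37 and 53 in untreated control libraries (log2 fold change 2.77, adjusted p 0.0372 by edgeR's quasi-likelihood test).

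**Figure D1:**
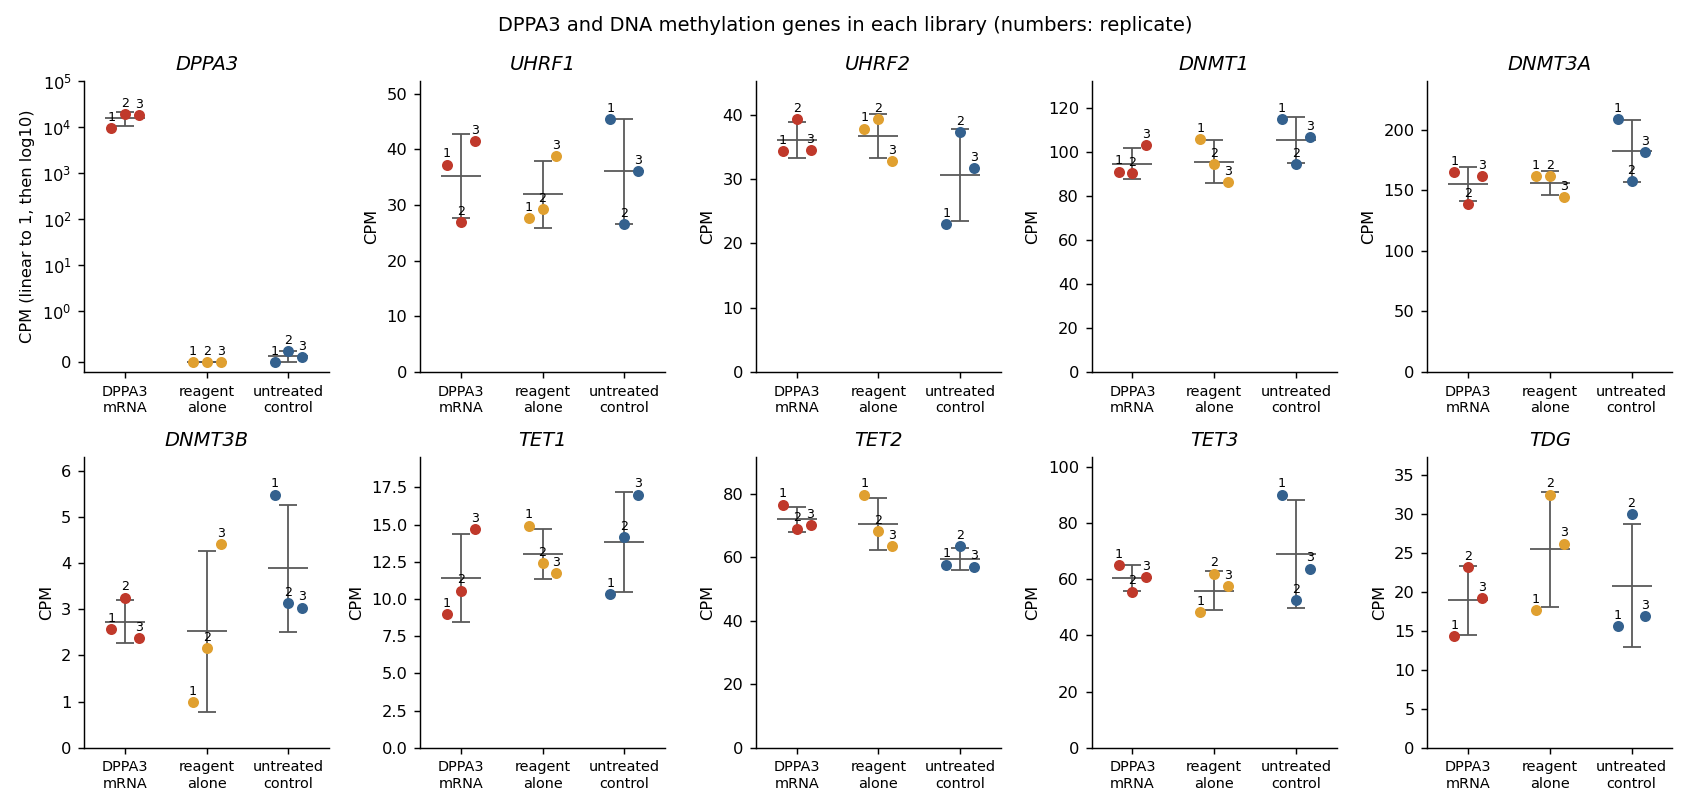
Level of each of the 10 genes in every library, in CPM on library sizes scaled with TMM factors, for DPPA3 mRNA, reagent alone and untreated control cells. Points are libraries with their replicate number, and horizontal lines and bars are the group mean and SD (n = 3); the DPPA3 axis is linear up to 1 CPM and logarithmic above it. DPPA3 lies between 9526 and 19312 CPM in transfected cells and at or below 0.217 CPM elsewhere. The groups of every other gene overlap, except that TET2 lies higher in both groups given the reagent than in untreated control cells.

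The 9 genes of the machinery were close to 0 as a group when DPPA3 mRNA was set against reagent alone. Their log2 fold changes had a median of -0.01 and a median size of 0.03, beside 0.00 and 0.16 for all genes tested. Of these, 4 lay above 0 and 5 below, and the adjusted p of each was 0.9998. Against untreated control the median was -0.15 and the median size 0.23, beside 0.00 and 0.23 for all genes, with 2 above 0 and 7 below. Between reagent alone and untreated control the median was -0.14 and the median size 0.24, beside -0.01 and 0.30 for all genes. These comparisons share groups, so their values are not independent of each other.

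The 95% intervals state how large a difference these libraries could hide. Against reagent alone the interval of 7 of the 9 genes lay within 2-fold in either direction, and the exceptions were DNMT3B and TDG. Against untreated control it did so for 8 of the 9 genes, with DNMT3B the exception, and the same count held between reagent alone and untreated control. A p above the threshold does not show that a gene was equal between groups.

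**Figure D2:**
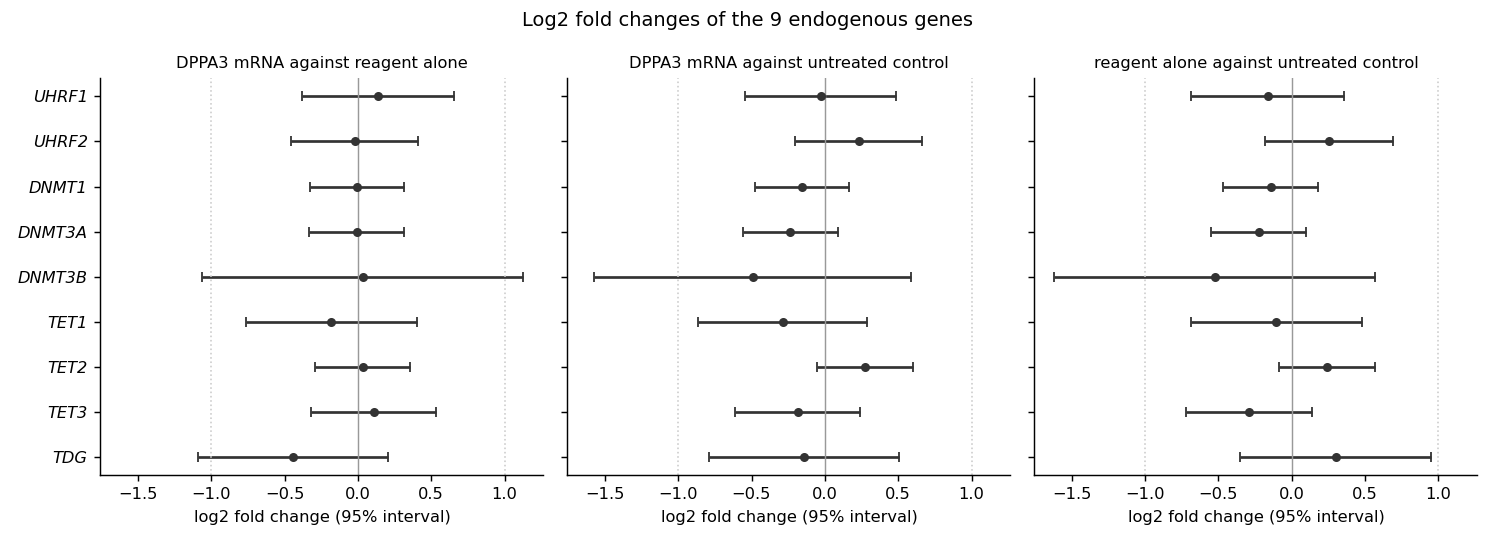
Log2 fold change of the 9 genes other than DPPA3 in the 3 comparisons, with points for the estimate and bars for the 95% interval from edgeR's quasi-likelihood fit (3 libraries per group). Dotted lines mark 2-fold in either direction. Every interval crosses 0, and those of DNMT3B, the gene with the lowest counts, are the widest.

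UHRF1, the reader of half-methylated sites and the protein that DPPA3 binds in mouse cells, was measured at like levels in all groups. It had 37.2, 26.9 and 41.5 CPM in DPPA3 mRNA libraries, 27.6, 29.3 and 38.8 CPM in reagent alone libraries and 45.4, 26.5 and 36.1 CPM in untreated control libraries, in replicate order. All 3 groups overlapped, and the highest and the lowest value of the 9 were both in untreated control libraries. The means were 35.2 ± 7.50 CPM for DPPA3 mRNA, 31.9 ± 6.002 CPM for reagent alone and 36.0 ± 9.46 CPM for untreated control (SD, n = 3 each), and these differ by less than the SD of a group.

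The UHRF1 log2 fold change was 0.14 ± 0.24 (SE) against reagent alone, a 95% interval of 0.768-fold to 1.57-fold, and -0.03 ± 0.24 against untreated control, where the interval was 0.686-fold to 1.402-fold. Between reagent alone and untreated control it was -0.16 ± 0.24. Its sign against untreated control rested on single libraries, and it turned in 2 of the fits that left out 1 library. Without untreated control replicate 1 the value was 0.18, and between reagent alone and untreated control it was 0.05.

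UHRF2, the paralog of UHRF1 with the same domains, which does not take over the maintenance role of UHRF1 in mouse cells, had 34.4, 39.3 and 34.5 CPM in DPPA3 mRNA libraries, 37.9, 39.3 and 32.8 CPM in reagent alone libraries and 23.0, 37.2 and 31.7 CPM in untreated control libraries. The groups overlapped, and untreated control replicate 1 was the lowest library. The log2 fold change was -0.02 ± 0.20 (SE) against reagent alone (0.730-fold to 1.33-fold) and 0.23 ± 0.20 against untreated control (0.869-fold to 1.58-fold). With each library left out in turn the second value lay between 0.07, without untreated control replicate 1, and 0.39, without untreated control replicate 2. UHRF1 was above and UHRF2 below its own mean in that library, whose ratio of UHRF1 to UHRF2 counts was 1.97, against 0.685 to 1.201 in the other 8 libraries. Such ratios follow transcript lengths too, which were not used here, so they compare libraries and not the amounts of the 2 transcripts.

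DNMT1, the enzyme that copies methylation onto the new strand, had 91.0, 90.2 and 103 CPM in DPPA3 mRNA libraries, 106, 94.5 and 86.2 CPM in reagent alone libraries and 115, 94.3 and 107 CPM in untreated control libraries. The groups overlapped, with the highest value in untreated control replicate 1 and the lowest in reagent alone replicate 3. Its log2 fold change was -0.01 ± 0.15 (SE) against reagent alone, with the narrowest interval of the 9 genes, 0.796-fold to 1.24-fold. Against untreated control it was -0.15 ± 0.15 (0.720-fold to 1.12-fold), and between reagent alone and untreated control it was -0.14 ± 0.15. The pooled SD of DNMT1 within groups was 0.13 on the log2 scale, beside a median of 0.21 for genes of like level, of which 18.0% had a smaller SD.

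DNMT3A, an enzyme that places new methylation, had 165, 139 and 162 CPM in DPPA3 mRNA libraries, 162, 161 and 145 CPM in reagent alone libraries and 209, 157 and 181 CPM in untreated control libraries. The mean was 155 ± 14.3 CPM for DPPA3 mRNA, 156 ± 9.82 CPM for reagent alone and 183 ± 25.8 CPM for untreated control (SD, n = 3 each). Untreated control replicates 1 and 3 were the 2 highest libraries, and the other untreated control library lay among the treated ones. The log2 fold change was -0.01 ± 0.15 (SE) against reagent alone (0.795-fold to 1.25-fold) and -0.23 ± 0.15 against untreated control (0.679-fold to 1.06-fold, adjusted p 0.852 by edgeR's quasi-likelihood test). Reagent alone against untreated control gave -0.23 ± 0.15. Without untreated control replicate 1 these 2 values were -0.12 and -0.11, and without untreated control replicate 2 they were -0.33 (adjusted p 0.263, edgeR's quasi-likelihood test) and -0.32.

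DNMT3B, the other enzyme for new methylation, was read at the lowest counts of the 9 genes, with 34, 36 and 28 counts in DPPA3 mRNA libraries, 4, 24 and 56 in reagent alone libraries and 34, 29 and 31 in untreated control libraries. Its level was 2.56, 3.25 and 2.38 CPM in DPPA3 mRNA libraries, 0.996, 2.16 and 4.41 CPM in reagent alone libraries and 5.48, 3.14 and 3.03 CPM in untreated control libraries. The highest library was untreated control replicate 1, and the lowest was reagent alone replicate 1, which had the smallest total count of the 9. The log2 fold change was 0.03 ± 0.51 (SE) against reagent alone, and its interval ran from 0.479-fold to 2.19-fold. This value rested on single libraries, being -0.27 without reagent alone replicate 1 and 0.70 without reagent alone replicate 3. Against untreated control it was -0.49 ± 0.50 (0.337-fold to 1.502-fold), and between -0.64, without untreated control replicate 3, and -0.17, without untreated control replicate 1.

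TET1, the first of the 3 enzymes that oxidise methylated cytosine, had 8.97, 10.6 and 14.7 CPM in DPPA3 mRNA libraries, 14.9, 12.4 and 11.7 CPM in reagent alone libraries and 10.3, 14.2 and 17.0 CPM in untreated control libraries. The groups overlapped, and the lowest library was DPPA3 mRNA replicate 1. The log2 fold change was -0.18 ± 0.27 (SE) against reagent alone (0.590-fold to 1.32-fold) and -0.29 ± 0.27 against untreated control (0.550-fold to 1.22-fold). With each library left out in turn the first lay between -0.41, without DPPA3 mRNA replicate 3, and -0.04, without DPPA3 mRNA replicate 1. The second lay between -0.51, without DPPA3 mRNA replicate 3, and -0.11, without untreated control replicate 3. The value between reagent alone and untreated control was -0.11 ± 0.27.

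TET2, the family member that lacks the CXXC domain found in TET1 and TET3 and relies on partner proteins to reach DNA, was the 1 gene of the 9 whose groups separated. It had 76.5, 69.0 and 70.2 CPM in DPPA3 mRNA libraries, 79.7, 68.2 and 63.6 CPM in reagent alone libraries and 57.7, 63.5 and 57.0 CPM in untreated control libraries. Every library that received the reagent, with or without the mRNA, lay above every untreated control library, though the lowest reagent alone library, at 63.6 CPM, all but touched the highest untreated control library, at 63.5 CPM. The DPPA3 mRNA and reagent alone libraries overlapped. The means were 71.9 ± 4.04 CPM for DPPA3 mRNA, 70.5 ± 8.30 CPM for reagent alone and 59.4 ± 3.59 CPM for untreated control (SD, n = 3 each).

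The TET2 log2 fold change was 0.28 ± 0.15 (SE) for DPPA3 mRNA against untreated control, with an interval of 0.966-fold to 1.52-fold, and 0.24 ± 0.15 for reagent alone against untreated control. Neither passed the threshold after Benjamini-Hochberg adjustment in edgeR's quasi-likelihood test (adjusted p 0.852 and 0.497). As 8.1% and 14.1% of all genes tested had groups that did not overlap in these comparisons, 1 such gene among the 9 is near the background. Against reagent alone the value was 0.03 ± 0.15 (0.817-fold to 1.28-fold). With each library left out in turn the value for DPPA3 mRNA against untreated control lay between 0.23 and 0.33, and that for reagent alone against untreated control between 0.15, without reagent alone replicate 1, and 0.31. TET2 was also the steadiest of the 9 genes, with a pooled SD within groups of 0.12 on the log2 scale, beside a median of 0.22 for genes of like level, of which 9.03% had a smaller SD.

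TET3, the enzyme that oxidises the paternal genome in the mouse zygote, where DPPA3 shields the maternal genome from it, had 65.0, 55.6 and 60.6 CPM in DPPA3 mRNA libraries, 48.3, 62.0 and 57.4 CPM in reagent alone libraries and 90.1, 52.6 and 63.8 CPM in untreated control libraries. Untreated control replicate 1 was far above the other 8 libraries, which lay together and overlapped between groups. The log2 fold change was 0.11 ± 0.20 (SE) against reagent alone (0.7999-fold to 1.45-fold) and -0.19 ± 0.20 against untreated control (0.654-fold to 1.18-fold). Without untreated control replicate 1 the second value was 0.06, and between reagent alone and untreated control it was -0.04, against -0.29 ± 0.20 with all libraries. The ratio of TET2 to TET3 counts was 0.640 in untreated control replicate 1, the lowest of the 9, and 0.894 to 1.65 elsewhere.

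TDG, the glycosylase that removes the bases the TET enzymes oxidise furthest, had the largest change in size of the 9 genes against reagent alone, without passing the test. It had 14.3, 23.2 and 19.3 CPM in DPPA3 mRNA libraries, 17.7, 32.5 and 26.2 CPM in reagent alone libraries and 15.6, 29.99 and 16.9 CPM in untreated control libraries. The groups overlapped, and in each group replicate 1 was the lowest and replicate 2 the highest. The means were 18.9 ± 4.45 CPM for DPPA3 mRNA, 25.5 ± 7.45 CPM for reagent alone and 20.8 ± 7.94 CPM for untreated control (SD, n = 3 each).

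The TDG log2 fold change was -0.44 ± 0.30 (SE) against reagent alone, with an interval of 0.470-fold to 1.151-fold and an unadjusted p of 0.163 (edgeR's quasi-likelihood test). With each library left out in turn it lay between -0.63, without reagent alone replicate 1, and -0.23, without reagent alone replicate 2. Against untreated control it was -0.14 ± 0.30 and between reagent alone and untreated control 0.30 ± 0.30. Its sign against untreated control rested on single libraries, being 0.22 without untreated control replicate 2. TDG was the 1 gene of the 9 (11.1%) with the same order of replicates in all 3 groups, beside 9.88% of all tested genes. Its pooled SD within groups was 0.44 on the log2 scale, beside a median of 0.30 for genes of like level, of which 81.7% had a smaller SD.

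**Figure D3:**
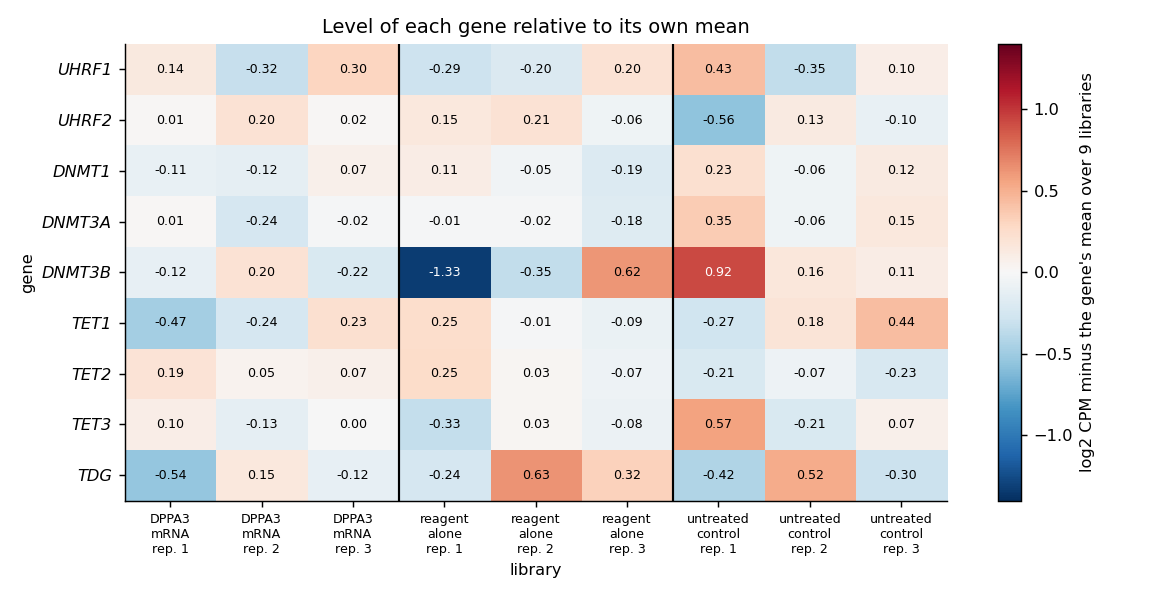
Level of the 9 genes other than DPPA3 in each library, as log2 CPM minus the gene's mean over the 9 libraries (red above the mean, blue below; the number is printed in each cell). Black lines part DPPA3 mRNA, reagent alone and untreated control libraries. The strongest colours are in DNMT3B, in TDG (0.63 in reagent alone replicate 2) and in untreated control replicate 1.

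Untreated control replicate 1 stood at an extreme for most of these genes. It was the highest of the 9 libraries for 5 of the 9 genes, UHRF1, DNMT1, DNMT3A, DNMT3B and TET3, and the lowest for UHRF2. For TET1, TET2 and TDG it was the second lowest. Over all tested genes the same library was highest for 28.8% and lowest for 31.8%, so its place at the extremes was not limited to the methylation genes. The 3 DPPA3 mRNA libraries were the highest of the 9 for none of these 9 genes, and for 6.11%, 11.2% and 5.16% of all tested genes. In replicate order they were the lowest for 2, 1 and 0 of the 9 genes, and for 6.06%, 9.40% and 4.45% of all tested genes.

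Genes that work with the 9 were read from 6 lists: partners of maintenance methylation, genes of DPPA3 transport and of new methylation, partners and co-substrate supply of the TET enzymes, base excision repair, the supply of methyl groups, and readers of methylated sites. Of 64 genes listed, 60 were tested. None was called by edgeR or DESeq2 in any comparison. Against reagent alone 28 of the 60 lay above 0 with a median log2 fold change of -0.02, and 0 had an unadjusted p under 0.05, beside 1.67% of all genes. Against untreated control the median was 0.01 and 3 genes, CXXC5, IDH1 and ZBTB4, had such a p, which is 5% beside 3.91% of all genes. Between reagent alone and untreated control it was 9 of 60, 15%, beside 10.2%.

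Among the 12 maintenance partners, genes that work with UHRF1 and DNMT1 at replicated DNA, 6 lay above 0 against reagent alone (median log2 fold change 0.00) and 7 against untreated control (0.10). USP7, the deubiquitinase that stabilises UHRF1 and DNMT1, averaged 193 ± 7.67 CPM in DPPA3 mRNA cells, 222 ± 30.8 CPM in reagent alone cells and 208 ± 14.7 CPM in untreated control cells (SD, n = 3 each). LIG1, the DNA ligase whose methylated form UHRF1 binds, averaged 56.4 ± 12.8 CPM in DPPA3 mRNA cells, 40.8 ± 4.0002 CPM in reagent alone cells and 64.1 ± 22.9 CPM in untreated control cells, a log2 fold change of 0.47 ± 0.25 (SE) against reagent alone. In untreated control replicate 1 the mean log2 CPM of this list was 4.70, against 5.24 to 5.45 in the other libraries. The summed CPM of the list went the other way, at 995 in that library against 838 to 922 in the others.

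The list of DPPA3 transport and new methylation held 8 tested genes, 5 of them above 0 against reagent alone (median 0.03) and 4 against untreated control (0.02). SETD2, the histone methyltransferase that marks gene bodies for DNMT3 enzymes, averaged 181 ± 15.7 CPM in DPPA3 mRNA cells, 209 ± 11.9 CPM in reagent alone cells and 183 ± 25.0 CPM in untreated control cells. TRIM28, a corepressor that protects imprinted methylation, averaged 329 ± 38.3 CPM in DPPA3 mRNA cells, 283 ± 4.52 CPM in reagent alone cells and 391.7 ± 106 CPM in untreated control cells. For both, DPPA3 mRNA and reagent alone libraries did not overlap, SETD2 being lower and TRIM28 higher in DPPA3 mRNA cells, at log2 fold changes of -0.21 ± 0.15 and 0.22 ± 0.18 (SE). Neither passed the test, and over the 6 lists such groups were found for 7 of 60 genes (11.7%), beside 8.9% of all genes tested. DNMT3L, the cofactor of the DNMT3 enzymes in germ cells, had 12 counts in 3 libraries and was not tested.

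Of the 9 tested partners of the TET enzymes, 3 lay above 0 against reagent alone (median -0.07) and 5 against untreated control (0.02). CXXC5, a DNA-binding protein related to CXXC4, a partner of TET2, averaged 24.5 ± 1.498 CPM in DPPA3 mRNA cells, 30.6 ± 7.35 CPM in reagent alone cells and 34.2 ± 5.19 CPM in untreated control cells. Its log2 fold change was -0.32 ± 0.22 (SE) against reagent alone and -0.48 against untreated control (adjusted p 0.852, edgeR's quasi-likelihood test). D2HGDH, the enzyme that clears 2-hydroxyglutarate, an inhibitor of the TET enzymes, averaged 23.3 ± 3.37 CPM in DPPA3 mRNA cells, 17.4 ± 5.81 CPM in reagent alone cells and 32.0 ± 6.50 CPM in untreated control cells.

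In base excision repair, the pathway that follows TDG, 7 of 12 genes lay above 0 against reagent alone (median 0.04) and 3 against untreated control (-0.08). MBD4, a second glycosylase for thymine at CG sites, averaged 18.2 ± 2.08 CPM in DPPA3 mRNA cells, 14.2 ± 4.61 CPM in reagent alone cells and 14.2 ± 1.39 CPM in untreated control cells. XRCC1, the scaffold of the repair complex, averaged 22.2 ± 1.97 CPM in DPPA3 mRNA cells, 16.7 ± 2.73 CPM in reagent alone cells and 24.2 ± 8.94 CPM in untreated control cells, a log2 fold change of 0.42 ± 0.27 (SE) against reagent alone.

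In the supply of methyl groups, 4 of 12 tested genes lay above 0 against reagent alone (median -0.05) and 9 against untreated control (0.08). AHCYL2, a homologue of the enzyme that splits S-adenosylhomocysteine, averaged 30.7 ± 2.96 CPM in DPPA3 mRNA cells, 28.1 ± 3.55 CPM in reagent alone cells and 31.3 ± 2.80 CPM in untreated control cells. It did not pass the test in any comparison. Of the 7 readers of methylated sites, 3 lay above 0 in each comparison (median -0.07 against reagent alone). The reader ZBTB33, also called Kaiso, averaged 20.01 ± 6.08 CPM in DPPA3 mRNA cells, 23.8 ± 2.28 CPM in reagent alone cells and 14.2 ± 4.69 CPM in untreated control cells.

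**Figure D4:**
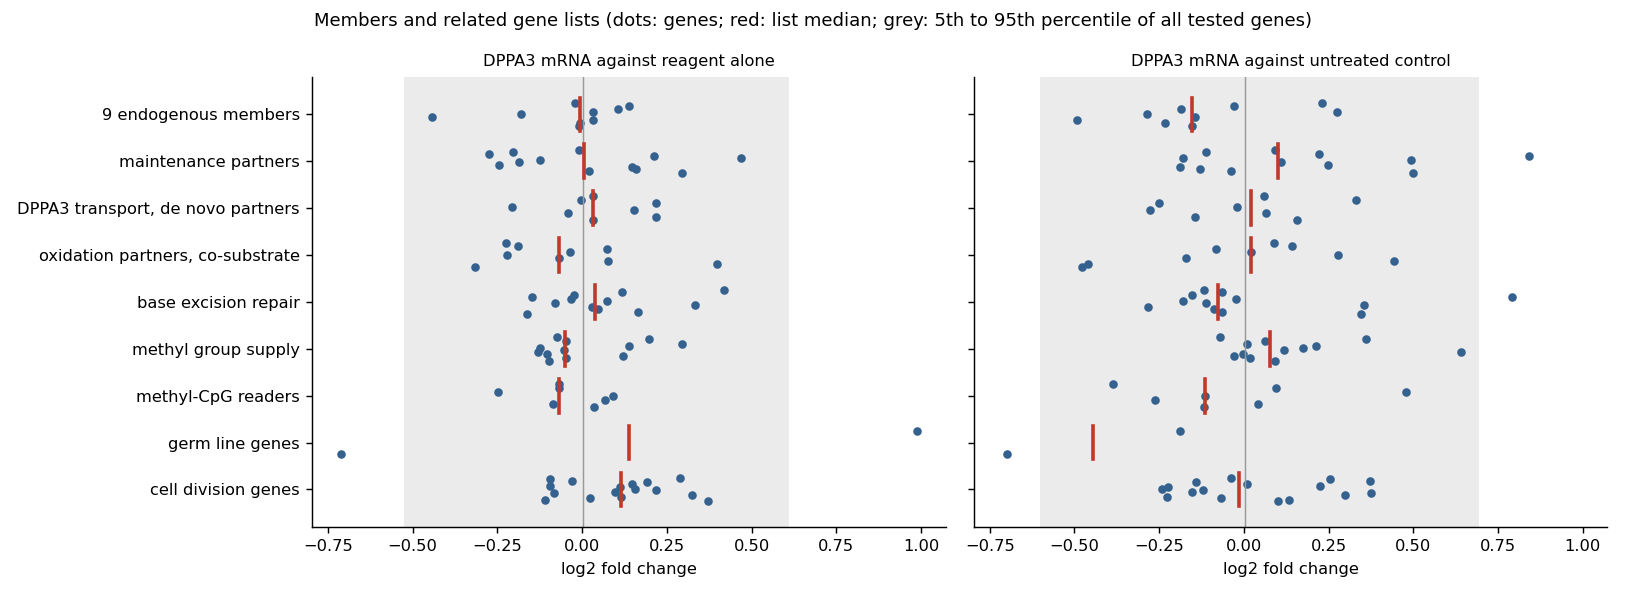
Log2 fold change of the 9 genes other than DPPA3, of the 6 lists of genes that work with them, of germ line genes and of cell division genes, for DPPA3 mRNA against reagent alone (left) and against untreated control (right). Dots are genes, red lines list medians and the grey band the 5th to 95th percentile of all tested genes. List medians lie between -0.07 and 0.14 on the left, and most genes of every list but the germ line genes lie within the band.

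Germ line genes whose promoters are methylated in body cells of the mouse, and which are turned on there when maintenance fails, were read as a transcript-level sign of promoter methylation. Of 15 listed, 13 were found by symbol and only 2, MAEL and DPEP3, had enough counts to be tested. The summed count of the list was 24 to 37 in DPPA3 mRNA libraries, 12 to 36 in reagent alone libraries and 13 to 32 in untreated control libraries. These ranges overlapped. MAEL, a gene of the piRNA pathway, averaged 0.72 ± 0.55 CPM in DPPA3 mRNA cells and 0.42 ± 0.33 CPM in reagent alone cells. Its mean was 0.85 ± 0.37 CPM in untreated control cells, and its log2 fold change against reagent alone was 0.99 ± 1.01 (SE). DDX4, SYCE1 and BRDT had 0 counts in all 9 libraries. DPEP3, a dipeptidase gene of the testis, averaged 0.51 ± 0.37 CPM in DPPA3 mRNA cells, 0.88 ± 0.46 CPM in reagent alone cells and 0.86 ± 0.53 CPM in untreated control cells. Small changes of these genes were not detectable at this depth.

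Since methylation is lost through cell division when it is not copied, and UHRF1 and DNMT1 are themselves made in dividing cells, 16 cell division genes were read beside them. Their mean log2 CPM was 5.24, 5.20 and 5.36 in DPPA3 mRNA libraries, 5.15, 5.02 and 5.30 in reagent alone libraries and 5.10, 5.21 and 5.29 in untreated control libraries. The groups overlapped. None of the 16 was called by edgeR or DESeq2, and against reagent alone 11 lay above 0, with a median log2 fold change of 0.11, beside 0.00 for all genes. AURKB, a kinase of mitosis, averaged 14.5 ± 2.13 CPM in DPPA3 mRNA cells, 11.2 ± 3.39 CPM in reagent alone cells and 13.5 ± 2.07 CPM in untreated control cells. MCM3, a subunit of the replicative helicase, averaged 64.2 ± 2.91 CPM in DPPA3 mRNA cells, 55.2 ± 2.19 CPM in reagent alone cells and 69.9 ± 2.80 CPM in untreated control cells.

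Interferon-stimulated genes, which cells turn on when they sense foreign RNA, stood higher in every library that received DPPA3 mRNA. The mean log2 CPM of the 11 tested was 3.61, 7.24 and 4.51 in DPPA3 mRNA replicates 1, 2 and 3, 1.60, 1.95 and 3.12 in reagent alone replicates and 1.91, 2.12 and 2.34 in untreated control replicates. The groups did not overlap, and DPPA3 mRNA replicate 2 was far above the other libraries. DPPA3 itself lay at 9526, 19312 and 18096 CPM in DPPA3 mRNA replicates 1, 2 and 3. A relation of these genes to the amount of DPPA3 was not tested. Against reagent alone, edgeR called 0 of the 11 at an adjusted p under 0.05, beside 0.00672% of all genes tested. With edgeR 10 of the 11 had an unadjusted p under 0.05, beside 1.67% of all genes. DESeq2 called 2 of the 11, beside 9 genes in all. The list was chosen with earlier results of these data known, so these counts are no independent support. The median log2 fold change of the list was 3.70. The smallest adjusted p of the list was 0.467, for IFI6 and RSAD2. Without DPPA3 mRNA replicate 2 the log2 fold change against reagent alone was 0.30 for UHRF1, 0.03 for DNMT1 and -0.62 for TDG, and none of the 9 machinery genes was called. The part of the interferon-stimulated genes in these values was not tested.

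The genes whose profiles over the 9 libraries were nearest to those of 3 members were named by the root-mean-square difference of centred log2 CPM, among 11053 genes with a mean of at least 5 CPM. For DPPA3 the nearest were RSAD2, LOC112441507 and ISG15, at differences of 4.97 to 5.63. As DPPA3 was at 0 to 2 counts in the 6 libraries without the mRNA, its profile is that of the transfection itself, and differences of this size are no likeness. For UHRF1 they were MAD1L1, RNASEH2A and FKBP2, at 0.085 to 0.112, beside a median of 0.37. For DNMT1 they were ZC3H13, GANAB and KANSL3, at 0.041 to 0.063, beside a median of 0.30. These are descriptions of 9 libraries and share their depth.

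The strand setting of the counting is not stated, and reads of overlapping genes cannot be told apart. In the RefSeq table of ARS-UCD2.0, the genes UHRF1, DNMT1, DNMT3A and TET1 overlap other annotated genes, and the other 6 overlap none. The gene overlapping UHRF1, ARRDC5, had 1 count over all 9 libraries, the one overlapping DNMT1 had 6, and those overlapping TET1 had 3, while those overlapping DNMT3A had 565.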

How the data were processed

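RNA from 9 libraries, 3 per group, was purified with TRIzol and DNase, and the IDT xGen RNA kit served for library preparation, per the labels' protocols. The authors deposited 1 table of raw read counts per gene symbol and library. Trimmomatic, HISAT2, HTSeq and edgeR are named per the submitters' processing notes. What each did, its version and the annotation and build used were not given in the sources used here, and coordinates are left out.

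The filterByExpr filter on low counts left 14874 of 30641. TMM factors scaled the libraries, and all 3 groups entered 1 fit by edgeR 4.0.16 in R 4.3.3 (glmQLFit, then glmQLFTest) with no term but group. Calls were made at 0.05 after Benjamini-Hochberg adjustment across the tested genes. The common biological coefficient of variation came to 0.255. CPM was computed on TMM-scaled library sizes, and log2 CPM with a prior count of 2. The standard error is the log2 fold change divided by the root of F. A floor of 3 counts per library (0.226 to 0.747 CPM) served for the lower bound of the DPPA3 fold over reagent alone. No DPPA3 fold was given where both groups were at or under it. Elsewhere a count of 0 stayed 0 in CPM and in the fits.

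The alternatives were size factors from DESeq2, no filter on counts, its Wald test (DESeq2 1.42.0), a fit of the compared groups alone, a replicate block, removal of DPPA3 from library sizes and testing, and removal of each library in turn. Replicate numbers recur in every group. For DPPA3 mRNA and untreated control, same-numbered libraries had correlated deviations from their group means (0.34, 0.32 and 0.12, each over 0.1). The numbers were therefore read as pairing these samples. This comes from the data, as the labels do not say it. The main fit had no term for the pairing. The folds, intervals and p-values of that comparison leave it out unless the block is named. With the block, 7 genes were called in that comparison rather than 2. The members and gene lists were chosen with earlier results of these data known. The text names the 10 members, up to 2 genes of each list with the smallest p against reagent alone, the 3 nearest profiles of DPPA3, UHRF1 and DNMT1, and the cell type markers. Some genes that this rule names are not reported here. No pair of replicates had counts alike enough to come from 1 library (chi-square over its degrees of freedom 14.4 or more). The code was tested on simulated data.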

Additional observations from a re-analysis of the deposited data

How the results depend on the processing

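None of the 9 methylation genes other than DPPA3 was called under any alternative, and DPPA3 stayed called against reagent alone and untreated control wherever it was tested. Leaving DPPA3 out of the library sizes and the test gave 0 members called in both of these comparisons, by construction, and 0 genes called in each. Genes called against reagent alone were 66 with no filter, 9 by DESeq2 and 2 with the replicate block, and between 1 and 20 with each library left out (20 if DPPA3 mRNA replicate 1 is left out, 2 if DPPA3 mRNA replicate 2 is), against 1. Against untreated control they were 69 with no filter, 10 by DESeq2 and 7 with the block, and between 1 and 26 with a library left out (26 if DPPA3 mRNA replicate 1 is left out, 1 if any untreated control replicate is), against 2. Between reagent alone and untreated control they were 18 with no filter, 2 by DESeq2 and 0 to 1 with a library left out (1 without reagent alone replicate 1), against 0. The cause of these differences was not tested. The replicate block changed no member's call. Same-numbered DPPA3 mRNA and reagent alone libraries had correlations of 0.14, 0.12 and 0.086. Those of reagent alone and untreated control were 0.15, 0.14 and 0.093. As the last of each fell short of the chosen limit of 0.1, the numbers were not taken to pair these samples. Whether they do is not known. With the block TDG in DPPA3 mRNA against reagent alone was -0.42. Its unadjusted p was 0.0471 and its adjusted p 0.999 (edgeR's quasi-likelihood test), against an unadjusted p of 0.163 without the block. TDG was lower in DPPA3 mRNA in 3 of 3 same-numbered pairs, and 28.9% of all tested genes lay on 1 side in all 3 pairs.

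Over the alternatives that leave out no library, no log2 fold change of the 9 genes changed sign. Leaving out each library turned the sign of some of them, all uncalled. The ranges were -0.077 to 0.067 for DNMT1, -0.059 to 0.067 for DNMT3A, -0.27 to 0.70 for DNMT3B, -0.036 to 0.13 for TET2 and -0.098 to 0.035 for UHRF2 against reagent alone. They were -0.31 to 0.22 for TDG, -0.34 to 0.060 for TET3 and -0.21 to 0.18 for UHRF1 against untreated control, and -0.26 to 0.073 for TET1 and -0.34 to 0.048 for UHRF1 between reagent alone and untreated control. With 3 libraries per group, the 95% intervals given above show the differences that these libraries leave possible. They are not limits of detection, which were not computed.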
